A study of Mus musculus with 4 samples.

Results

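The 9 genes described here are the odontogenic homeobox factors Msx1, Msx2, Dlx1, Dlx2, Dlx3, Dlx5, Dlx6 and Barx1 and the paired-box factor Pax9. They were taken by symbol from the 32285 genes listed in the 4 single-cell matrices, and all 9 were found. The matrices hold unique molecular identifier (UMI) counts from proximal tissue of the continuously growing lower incisor of mice at postnatal day 15. There were 2 wild-type (WT) libraries and 2 from mice carrying the Din-KO allele, a germline deletion of Din exon 2 with a LacZ reporter (Din is also called 4930453N24Rik). The number of mice behind a library and the strain of each were not given, so p-values measure the spread between libraries only.

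Msx and Dlx proteins bind DNA through a homeodomain and act in the exchange of BMP, FGF and Hedgehog signals between dental epithelium and the neural crest-derived dental mesenchyme. Msx1 and Pax9 are known from the mesenchyme of the tooth bud, where loss of either arrests tooth formation in mice. The Dlx genes lie in convergently transcribed pairs that share enhancers, and pattern the jaw and its teeth. Barx1 marks the molar-forming part of the embryonic jaw.

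A short coding stretch of the homeobox shows how closely the families are related, and is given for 3 Dlx genes and Barx1. The stretches below are the 30 coding bases around the core of the recognition helix, 5′ to 3′, with the core in capitals, which starts at codon 48 of the 60 codons of the homeobox (GENCODE vM21 transcripts, GRCm38). All lie in exon 3 of their gene.
Dlx1 (chr2:71532267-71532296, plus strand): aagataTGGTTCCAGAACAAACGCtccaag
Dlx5 (chr6:6878456-6878485, minus strand): aaaatcTGGTTTCAGAACAAAAGAtccaag
Dlx6 (chr6:6867044-6867073, plus strand): aagataTGGTTTCAGAATAAGCGCtctaag
Barx1 (chr13:48665444-48665473, plus strand): aagacgTGGTATCAAAATCGGAGGatgaaa

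Over the whole 180-base homeobox, Dlx1 and Dlx6 were identical at 76.7% of bases, Dlx1 and Dlx5 at 76.1%, and the neighbours Dlx5 and Dlx6 at 73.3%. Barx1 was more distant, with 57.2% identity to Dlx6, 52.2% to Dlx5 and 50.0% to Dlx1. No such core was found in the coding sequence of Pax9 (chr12:56691767-56712822, plus strand), which binds DNA through its paired domain. Dlx1 and Dlx2 lie 9426 bases apart on chromosome 2, Dlx6 and Dlx5 9236 bases apart on chromosome 6, and Dlx3 lies 15150 bases from Dlx4 on chromosome 11. Each pair is on opposite strands. The antisense genes Dlx1as and Dlx6os1 overlap Dlx1 and Dlx6.

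The libraries held 20502 cell barcodes and 32198098 to 54348039 UMIs each. After filtering, 11310 cells remained: 3903 and 1560 in WT replicates 1 and 2, and 4575 and 1272 in Din-KO replicates 1 and 2. Clusters were named only from marker genes, and the 9 factors took no part in clustering or naming. The mesenchyme-like class had 7156 cells. Within it, 3368 cells were pulp-like, 1221 follicle-like, 358 odontoblast-like and 202 osteoblast-like, and 2007 were given no narrower name. A further 578 cells were epithelium-like. The clusters had 5 to 8 pulp, 6 to 7 follicle or 8 to 9 odontoblast markers raised over the mean of the mesenchyme-like clusters. Those of the epithelium had 8 epithelial or 7 ameloblast markers raised over the mean of all clusters. The replicate 1 and replicate 2 libraries stood apart in both genotypes, with 1496 and 1593 pulp-like cells in the former against 155 and 124 in the latter. The library names in the labels also follow the replicate numbers, and what they mark was not given. Din itself stood at 36.3 and 28.5 CPM (a gene's UMIs scaled to the total of the class) in mesenchyme-like cells of the WT libraries, and at 22.9 and 28.3 in Din-KO, which does not check the labels because the 3′ tags need not come from the deleted exon. Cells with Y-linked UMIs and at most 1 Xist UMI made up 0.0% of mesenchyme-like cells in both WT libraries and 43.4% and 43.7% in Din-KO, so genotype and sex cannot be told apart except by leaving those cells out.

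Levels are given as CPM, the usual scaling of a gene's UMIs to a fixed total, here the UMIs summed over all cells of a class in a library, with the SD over the 4 libraries. Counting at the 3′ end gives no per-length scale, so levels are compared between cell classes and not between genes. Because classes were built from the same cells, differences between classes are descriptions without a test. Macrophage-like cells, which are not expected to transcribe these genes, served as the measure of free RNA. This measure depends on the cell type taken. B-cell-like cells held less, with Msx1 at 8.4 ± 7.9, Msx2 at 10.3 ± 8.0 and Dlx3 at 6.4 ± 4.6 CPM. The macrophage-like values for these were 46.2 ± 5.8, 33.5 ± 4.2 and 16.4 ± 4.3 CPM. Whether the macrophage-like values hold more than free RNA was not tested.

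**Figure D1:**
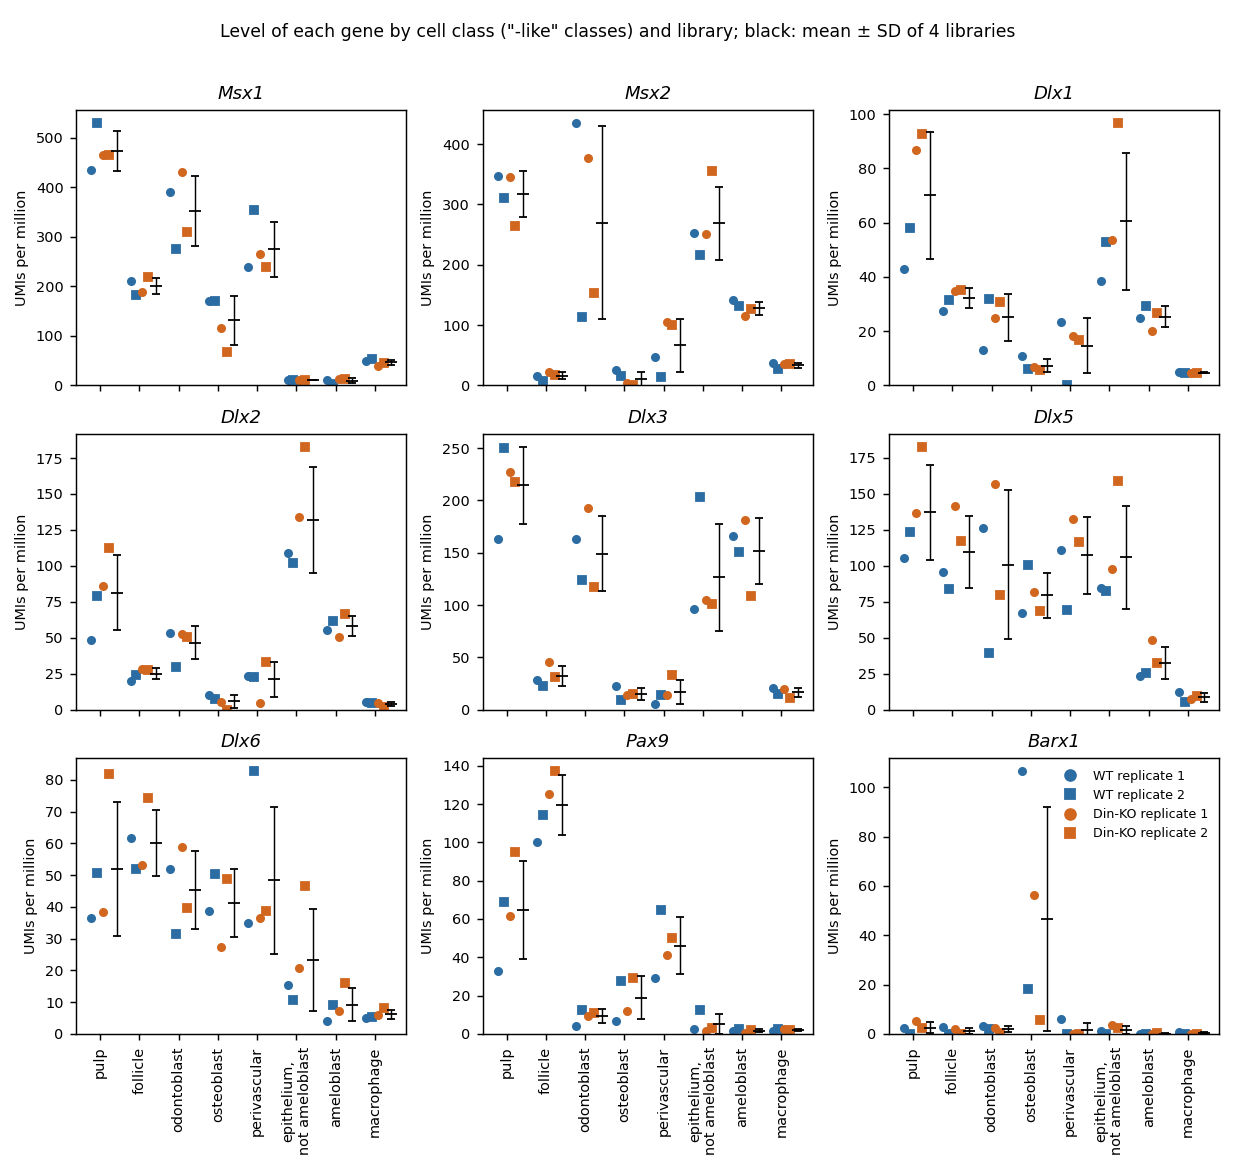
Level of each of the 9 factors (CPM, linear axis from 0) in 8 classes, with circles and squares for the replicate 1 and 2 libraries, blue for WT and orange for Din-KO, and black bars for mean ± SD over 4 libraries. Msx1 and Pax9 sit low in both epithelial groups, Msx2 and Dlx3 low in follicle-like cells, and Barx1 is high in osteoblast-like cells.

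Msx1, the factor needed for the bud-to-cap step, was a mesenchymal gene in these libraries. In pulp-like cells it stood at 434 and 529.9 CPM in the WT libraries and 465 and 465 in the Din-KO libraries. In follicle-like cells the values were 210.2, 183, 189 and 218 in the same order, and in odontoblast-like cells 390, 276, 430.2 and 309. All pulp-like values lay above all follicle-like values, and the pulp-like level was higher by 1.24 ± 0.22 on the log2 scale (SD over 4 libraries). Epithelium-like cells gave 10.3, 3.14, 11.7 and 12.5 CPM, which is below the 46.2 ± 5.8 CPM of macrophage-like cells. Epithelial Msx1 was thus not detectable above this measure of free RNA. Mesenchyme-like cells exceeded epithelium-like cells 38.2-fold, or by 5.25 ± 0.87 on the log2 scale. The genes with the pattern most like Msx1 were Gm34030, Hand2os1 and 5033428I22Rik, with a Pearson r of 0.922 to 0.936 over 47 sums of library and class on the log2(CPM + 1) scale. Such correlations are descriptions over 13 classes that share libraries.

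Msx2, its closest relative, was shared between mesenchyme and epithelium but not with the follicle. Pulp-like cells held 346 and 311 CPM in WT and 346 and 265 in Din-KO. Epithelium-like cells held 223, 142, 188 and 219 CPM. Follicle-like cells held 15.9, 7.89, 22.0 and 16.7 CPM, at or below the 33.5 ± 4.2 CPM of macrophage-like cells. The pulp-like level was 21.5-fold the follicle-like level, which was the widest pulp-to-follicle gap among the 8 factors with more than 3 UMIs in every library of both classes. Msx1 and Msx2 differed in this respect, since follicle-like cells kept Msx1 at 200.1 ± 16.5 CPM. Across the mesenchyme-like and epithelium-like classes Msx2 had no common direction, being higher in mesenchyme in 2 of 4 libraries.

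Dlx3, known for its part in dentin, enamel and hair, followed the pattern of Msx2. Its level was 163 and 250.2 CPM in WT and 227 and 217 in Din-KO pulp-like cells, against 28.0, 22.8, 45.3 and 31.6 CPM in follicle-like cells. The pulp-like level was 6.85-fold higher, and the 2 classes did not overlap. Odontoblast-like cells stood at 149 ± 36 CPM and epithelium-like cells at 129 ± 24 CPM, which do not differ beyond their spread. Dlx3 was the gene most like Msx2 (r = 0.848), ahead of Car12 (0.845) and the BMP pseudoreceptor gene Bambi (0.824). The genes most like Dlx3 were its neighbour Dlx4 (r = 0.911), Snap91 (0.882) and Bmp7 (0.877).

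Dlx1 and Dlx2, the pair on chromosome 2, were found in both tissues. Dlx2 was the only one of the 9 that was lower in mesenchyme-like than in epithelium-like cells of all 4 libraries, with a log2 ratio of -0.84 ± 0.32. Epithelium-like cells held 94.9, 66.8, 95.6 and 113.5 CPM of Dlx2, and pulp-like cells held 48.4, 79.2, 85.8 and 112.3 CPM. Dlx1 stood at 40.2 ± 10.2 CPM in epithelium-like and 70.1 ± 23.6 CPM in pulp-like cells. In follicle-like cells Dlx1 fell in the range 27.5 to 35.3 CPM and Dlx2 in the range 20.1 to 28.4 CPM, below every pulp-like library. In pulp-like cells outside the Smoc2-led cluster described below, Dlx1 stood at 21.0 and 46.7 CPM in WT and 33.2 and 49.5 CPM in Din-KO. There WT replicate 1 lay below the follicle-like range of Dlx1 and Din-KO replicate 1 within it. Dlx2 in those cells, at 43.4 to 80.7 CPM, stayed above its follicle-like range. Dlx1 and Dlx2 were each among the 3 genes most like the other (r = 0.864), beside Ncs1 and Rab34 for Dlx1 and Dlx3 and Aldh1a3 for Dlx2.

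Dlx5 and Dlx6, the pair on chromosome 6 that acts in jaw patterning and bone formation, did not separate the whole pulp-like and follicle-like classes. Dlx5 stood at 137 ± 33 CPM in pulp-like and 109.6 ± 25.3 CPM in follicle-like cells, and was higher in the former in 3 of 4 libraries. Dlx6 stood at 51.9 ± 21.0 and 60.2 ± 10.3 CPM in the same classes, lower in pulp-like cells in 3 of 4 libraries. This depended on the Sfrp2-led follicle-like cluster described below. Without it, a step added after the data were seen, follicle-like Dlx6 was 33.6 and 33.6 CPM in WT. In Din-KO it was then 24.9 and 46.4 CPM, and each library's pulp-like value was higher. Pulp-like cells outside the Smoc2-led cluster held 34.2 and 27.6 CPM of Dlx6 in WT and 35.5 and 43.9 CPM in Din-KO. Those values were below the follicle-like ones in both replicate 2 libraries. Dlx5 and Dlx6 were both lower in epithelium-like cells in all 4 libraries. The mesenchyme-like level of Dlx5 was 2.04-fold the epithelial one, and that of Dlx6 was 2.96-fold. Dlx5 and Dlx6 were each among the 3 genes most like the other (r = 0.883), with the Wnt receptor gene Fzd2 first for Dlx5 (r = 0.928).

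Pax9 was the only one of these factors whose follicle-like level exceeded its pulp-like level in all 4 libraries. Follicle-like cells held 100.4 and 114 CPM in WT and 125 and 137 CPM in Din-KO. Pulp-like cells held 32.9, 68.9, 61.7 and 95.1 CPM, and were lower in each library, with a log2 ratio of -0.97 ± 0.47. This order depended on the clustering and on which pulp-like cells were taken. Without regression of the cell cycle the mean log2 ratio was 0.21, and in the pulp-like cluster led by Lypd1 and Smoc2, Pax9 at 165 to 229 CPM lay above every follicle-like value. Odontoblast-like cells held 4.31, 12.7, 9.39 and 10.7 CPM, a log2 ratio to the follicle-like level of -3.78 ± 0.57. Epithelium-like cells stood at 2.4 ± 1.1 CPM, about the 2.1 ± 0.6 CPM of macrophage-like cells. The genes most like Pax9 were Alx1, a homeobox factor of cranial neural crest (r = 0.912), Slc6a17 (0.902) and Cys1 (0.886).

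Barx1 was nearly absent from the 4 classes. Pulp-like cells gave 32 and 0 UMIs in WT and 55 and 3 in Din-KO, or 0.0 to 5.17 CPM. Where no UMI was counted, up to 3 UMIs of the class total are allowed by counting error alone. Of 410 Barx1 UMIs in all kept cells, 189 came from the 202 osteoblast-like cells. There Barx1 reached 106.4 CPM in WT replicate 1 and 56.2 CPM in Din-KO replicate 1 but 18.3 and 5.59 CPM in the replicate 2 libraries, with both replicate 1 libraries above both replicate 2 libraries. This cluster was led by Spp1, the gene of the bone matrix protein osteopontin. Among its other factors, Msx1 stood at 131 ± 50 CPM and Dlx5 at 79.4 ± 15.7 CPM. Dlx6 stood at 41.3 ± 10.7 CPM and Pax9 at 18.9 ± 11.2 CPM, against 6.1 ± 1.5 and 2.1 ± 0.6 CPM in macrophage-like cells. Msx2 stood at 11.1 ± 11.8 CPM, below the macrophage-like 33.5 ± 4.2 CPM. Dlx3 at 15.2 ± 5.7 CPM overlapped its macrophage-like values of 16.4 ± 4.3 CPM.

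With each cell thinned to 2000 UMIs, the shares of cells with a UMI still set Msx1, Msx2 and Dlx3 apart between pulp-like and follicle-like cells. The ranges over libraries overlapped for Dlx1, at 7.76% to 17.4% in pulp-like and 6.83% to 8.55% in follicle-like cells. They also overlapped for Dlx2, at 8.77% to 17.0% and 3.61% to 9.15%, and met for Pax9, at 6.83% to 15.7% and 15.7% to 26.4%. Msx1 was found in 53.3% to 64.3% of thinned pulp-like cells per library and in 2.65% to 6.25% of macrophage-like cells. Without thinning these ranges were 82.7% to 95.5% and 10.5% to 22.2%. Pax9 was found in 15.7% to 26.4% of thinned follicle-like cells and in 0.0% to 1.77% of macrophage-like cells. The unthinned ranges of Pax9 were 69.2% to 81.8% and 1.07% to 2.33%.

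Among thinned mesenchyme-like cells, Dlx2 was found in 13.6% and 14.5% of Dlx1-positive cells in WT and 23.2% and 32.8% in Din-KO. In Dlx1-negative cells the shares were 8.30%, 7.90%, 13.7% and 7.75%, lower in each library. Msx2 was likewise found more often with Msx1 than without it in all 4 libraries, in 21.4% to 45.9% against 13.7% to 37.1% of cells. Pax9 was found less often in Msx1-positive than in Msx1-negative cells in 3 of 4 libraries, with 5.57% against 6.94% in WT replicate 1. These shares cover cells of several classes, and the depth of cells with and without each gene differed.

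**Figure D2:**
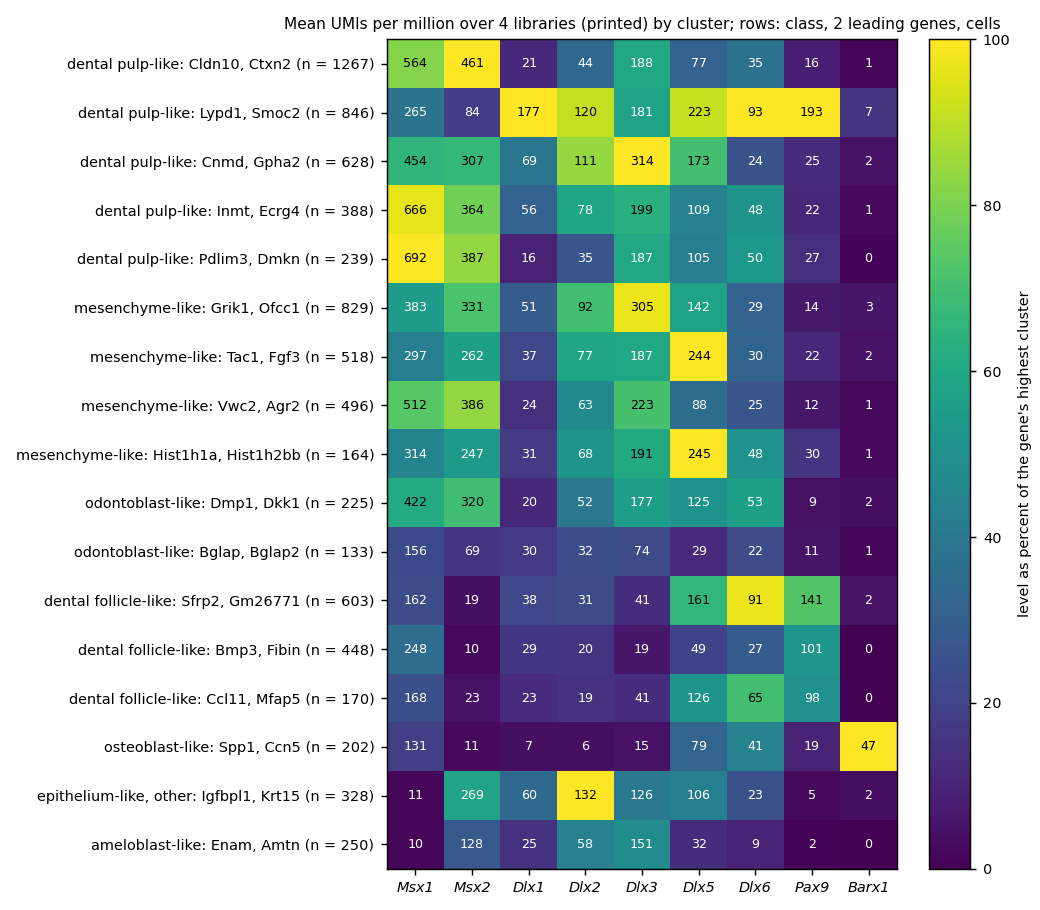
Mean level of each factor over the 4 libraries (CPM, printed in each cell) in each mesenchyme-like and epithelium-like cluster, named by its 2 leading genes, with color for the percent of that gene's highest cluster. Pax9 and Dlx1 peak in the Lypd1 and Smoc2 cluster, Msx2 in the Cldn10 cluster and Barx1 in the Spp1 cluster.

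Within the pulp-like class the factors split between the 846 cells of a cluster led by Lypd1 and Smoc2 and the remaining pulp-like cells. Smoc2 is a secreted calcium-binding matrix protein gene. In the Smoc2-led cluster Pax9 stood at 165 and 229 CPM in WT and 188 and 191 CPM in Din-KO. In the other pulp-like cells it stood at 16.2, 26.0, 17.2 and 25.5 CPM. The groups did not overlap and differed 9.27-fold. Dlx1 stood at 216, 100.3, 239 and 152 CPM in the Smoc2-led cluster and at 21.0, 46.7, 33.2 and 49.5 CPM elsewhere. Dlx5 was 2.05-fold higher, at 223 ± 10 against 111 ± 28 CPM. Dlx6 was 2.39-fold higher, at 93.5 ± 49.3 against 35.3 ± 6.7 CPM, and was higher in each library. Msx1 and Msx2 had the opposite order in all 4 libraries. Msx1 was 2.08-fold lower in the Smoc2-led cluster, at 265 ± 44 against 549 ± 65 CPM. Msx2 was 5.06-fold lower, at 84.2 ± 31.5 against 395 ± 25 CPM. Dlx2 was higher in the Smoc2-led cluster in 3 of 4 libraries, and Dlx3 in 2 of 4. Dlx3 was highest in the pulp-like cluster led by Cnmd and Gpha2, at 222 and 397 CPM in the WT libraries and 296 and 341 CPM in the Din-KO libraries. Msx2 reached 461 ± 55 CPM in the cluster led by Cldn10. Dlx5 was high in a mesenchyme-like cluster of 518 cells without a narrower name, led by Tac1 and the growth factor gene Fgf3, at 244 ± 56 CPM. By phase scores, 40.3% of the Smoc2-led cells were in S or G2/M, against 10.5% to 24.4% in the other pulp-like clusters.

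**Figure D3:**
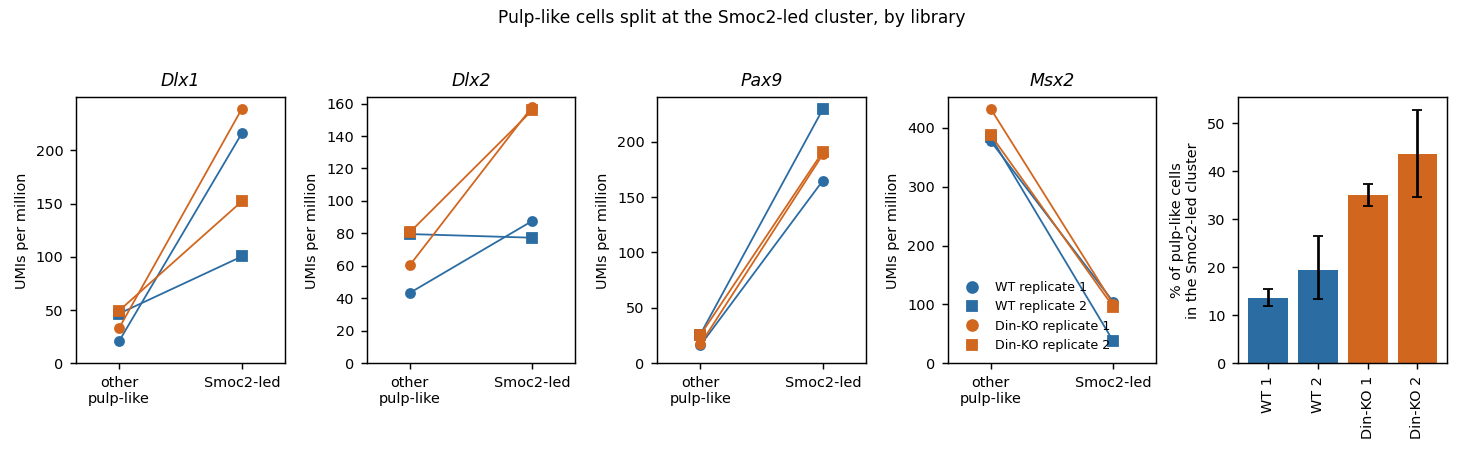
Levels (CPM) of Dlx1, Dlx2, Pax9 and Msx2 in the other pulp-like cells and in the Smoc2-led cluster, with lines joining the values of 1 library, and the percent of pulp-like cells in that cluster as bars with exact 95% binomial intervals. Dlx1 and Pax9 are higher and Msx2 is lower in the Smoc2-led cluster in all 4 libraries, and the cluster's share is 13.6% and 19.4% in WT and 35% and 43.5% in Din-KO.

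The odontoblast-like class also held distinct levels. One cluster of 225 cells was led by Dmp1, a matrix gene of young odontoblasts. The other, of 133 cells, was led by Bglap and carried Dspp, the dentin sialophosphoprotein gene of secretory odontoblasts. Msx2 stood at 483 and 168 CPM in WT and 428 and 202 CPM in Din-KO in the Dmp1-led cluster, and at 34.9, 81.9, 81.4 and 78.6 CPM in the Bglap-led cluster. The groups did not overlap. Msx1 stood at 422 ± 41 against 156 ± 53 CPM, and Dlx5 at 125 ± 44 against 29.5 ± 6.6 CPM. Dlx2, Dlx3 and Dlx6 were lower in the Bglap-led cluster in all 4 libraries too, by 1.64-fold, 2.46-fold and 2.46-fold. Dlx1 was lower there in 1 of 4 libraries and Pax9 in 0 of 4. The Bglap-led cluster had only 9 cells in WT replicate 1 and 16 in Din-KO replicate 1. In WT replicate 1 it held 1 UMI each of Dlx1 and Pax9. Msx2, Dlx2, Dlx3, Dlx5 and Dlx6 had 4 to 8 UMIs there, so the directions in that library rest on few counts.

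Secreted dentin, bone and enamel matrix genes took 20.3% to 27.5% of UMIs in the Bglap-led and 2.55% to 9.08% in the Dmp1-led cluster, which lowers the CPM of every other gene. With 25 matrix genes left out of the totals, a step added after the data were seen, Msx2 was 3.54-fold lower in the Bglap-led cluster in place of 4.43-fold, Dlx5 3.31-fold in place of 4.14-fold and Msx1 2.27-fold in place of 2.84-fold. The Bglap-led cluster held 12.9% and 17.0% of odontoblast-like cells in replicates 1 of WT and Din-KO, and 60.7% and 49.4% in replicates 2. Msx2 over the whole class stood at 435 and 377 CPM in the replicate 1 libraries and at 113 and 154 CPM in the replicate 2 libraries. Within the Dmp1-led cluster alone the replicate 1 libraries were also higher, at 483 and 428 against 168 and 202 CPM. The part of the cluster shares in the class levels was not tested.

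**Figure D4:**
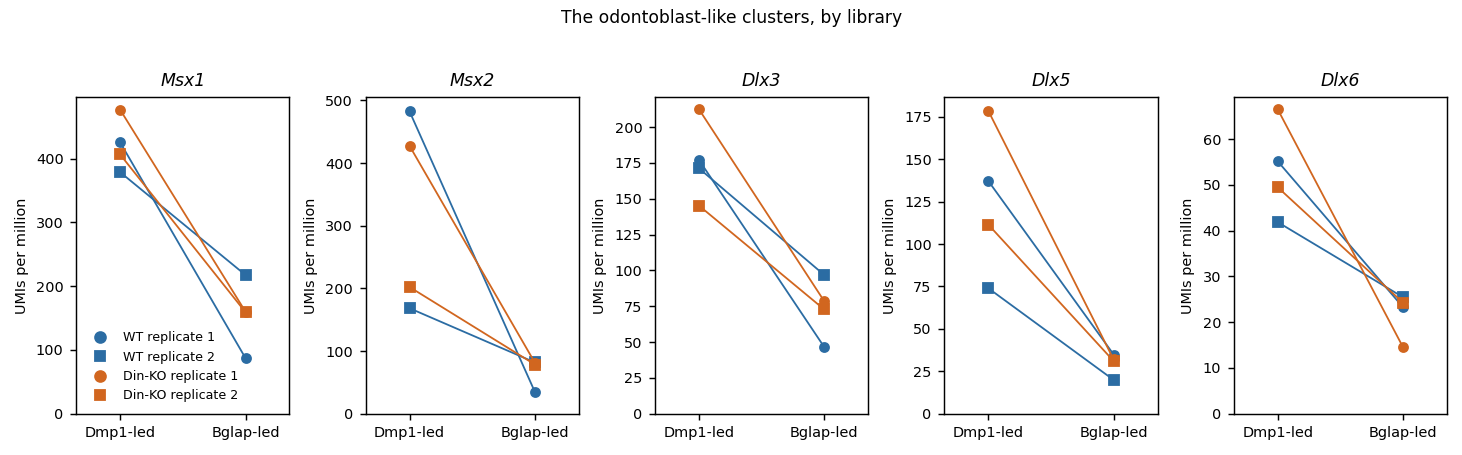
Levels (CPM) of Msx1, Msx2, Dlx3, Dlx5 and Dlx6 in the Dmp1-led and Bglap-led odontoblast-like clusters, with lines joining the values of 1 library. All 5 are lower in the Bglap-led cluster in each of the 4 libraries. That cluster had 9 cells in WT replicate 1 and 16 in Din-KO replicate 1.

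In the follicle-like class Dlx3, Dlx5 and Dlx6 were higher in its Sfrp2-led than in its Bmp3-led cluster in all 4 libraries. Another follicle-like cluster, of 26 to 60 cells per library, held 64.8 and 79.5 CPM of Dlx6 in WT and 37.8 and 78.3 CPM in Din-KO. In WT replicate 2 this was above the Sfrp2-led value of 76.1 CPM. The Sfrp2-led cluster, with 39.9% to 58.3% of follicle-like cells per library, also expressed Aldh1a2 and Pcp4. Ranked by fold with 10 CPM added, its 10 leading genes held more pulp than follicle markers, so its follicle-like name is uncertain. It held 147 and 127 CPM of Dlx5 in WT and 207 and 162 CPM in Din-KO. The Bmp3-led cluster held 55.3, 34.9, 49.5 and 57.3 CPM. Dlx6 was 3.38-fold higher in the Sfrp2-led than in the Bmp3-led cluster, at 90.7 ± 14.8 against 27.2 ± 7.1 CPM, and Dlx5 was 3.27-fold higher. Dlx3 was 2.04-fold higher, at 41.1 ± 14.2 against 19.5 ± 3.0 CPM. Against the Bmp3-led cluster Pax9 was 1.40-fold higher there, and Msx1 was 1.53-fold lower, each in all 4 libraries.

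Among epithelium-like cells, 250 were ameloblast-like by Amelx, Ambn and Enam, and 328 were other epithelium. Msx2, Dlx1, Dlx2, Dlx5 and Dlx6 were lower in ameloblast-like cells in all 4 libraries, while Dlx3 was higher in 3 of 4. Msx2 stood at 128 ± 11 CPM in ameloblast-like and 269 ± 60 CPM in other epithelium, and Dlx5 at 32.4 ± 11.2 against 106 ± 36 CPM. Matrix genes took 12.6% to 40.7% of UMIs in ameloblast-like cells. With them left out, Msx2 had a log2 ratio of -0.53 and Dlx5 of -1.2, both lower in 4 of 4 libraries, and Dlx3 was higher in 4 of 4, by 0.82. Dlx1 and Dlx2 were then lower in 4 of 4 libraries, with log2 ratios of -0.67 and -0.63, and Dlx6 in 3 of 4, with 0.51 in WT replicate 2. Ameloblast-like cells made up 16.6% and 73.6% of epithelium-like cells in WT and 32.2% and 59.3% in Din-KO.

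The second question of the design was whether the factors differed between Din-KO and WT within a class. No member passed an adjusted p of 0.05 in any of the 5 classes tested, by edgeR's quasi-likelihood test without a term for the replicate number or by DESeq2. With that number as a block, edgeR called 3 of the 9 members in pulp-like cells and none in the other classes. These were Dlx1 (0.87 on the log2 scale), Dlx2 (0.68) and Pax9 (0.71), each higher in Din-KO. Over all genes this fit called 366 of 13021 in pulp-like cells, 239 of them higher in Din-KO. What the replicate number marks was not given, and only 2 pairs share one. Din-KO minus WT differences were fitted on UMI counts summed per library and class over all genes that passed the count filter. In pulp-like cells Dlx1 was the member with the lowest p. The WT libraries held 43.0 and 58.0 CPM of Dlx1 and the Din-KO libraries 86.7 and 92.6 CPM, without overlap. The log2 fold change was 0.84 ± 0.24 (SE, 95% interval 0.28 to 1.40), with an unadjusted p of 0.00896 and an adjusted p of 0.9996 by edgeR. Dlx2 stood at 48.4 and 79.2 CPM in WT and 85.8 and 112.3 CPM in Din-KO, with a log2 fold change of 0.65 ± 0.28 (unadjusted p = 0.0512, edgeR). Pax9 gave 0.65 ± 0.36 with overlapping groups, though it was higher in Din-KO within both replicate numbers (32.9 and 61.7 CPM in replicate 1, 68.9 and 95.1 CPM in replicate 2), and Dlx5 gave 0.47 ± 0.25 with groups that did not overlap. For Msx1 the interval ran from -0.64 to 0.53 and for Msx2 from -0.77 to 0.54.

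By edgeR 2 of 13021 genes were called in pulp-like cells (0.0154%), the Y-linked Ddx3y and Eif2s3y and none of the 9. DESeq2 called 15, again none of the 9. At an unadjusted p under 0.05 it was 1 of the 9 against 1.81% of all genes. Din-KO values exceeded WT values in every pairing of libraries for 3 of the 9, namely Dlx1, Dlx2 and Dlx5, where the share over all genes was 12.1%. None of the 9 lay below, where that share was also 12.1%. The median log2 fold change was 0.47 over the 9 and -0.01 over all genes. At this size the test had little reach for small changes: in simulated pulp-like counts 68.0% of 4-fold changes and 0.5% of 2-fold changes were recovered among 13021 genes. In these runs 22 and 3 unchanged genes were called too.

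The makeup of the pulp-like class also differed between the libraries of the 2 genotypes. The Smoc2-led cluster, where Dlx1 and Pax9 were high in both genotypes, held 13.6% (exact 95% binomial interval 11.9% to 15.5%) and 19.4% (13.5% to 26.5%) of pulp-like cells in WT, and 35% (32.7% to 37.4%) and 43.5% (34.7% to 52.7%) in Din-KO. The intervals cover counting error only. Depth also differed: the Smoc2-led cells had a median of 5436.5 and 11480 UMIs in WT and 4276 and 7358 in Din-KO. The other pulp-like cells had 8357, 9735, 7129 and 8770.5 UMIs in the same order, so only in WT replicate 2 were the Smoc2-led cells deeper. The part of depth in the share of the Smoc2-led cluster was not tested. When that cluster was left out, a step added after the data were seen, the log2 fold change of Dlx1 in the remaining pulp-like cells was 0.32 ± 0.37, that of Pax9 -0.0086 ± 0.35 and that of Dlx2 0.22 ± 0.31. For Dlx5 it was 0.41 ± 0.27, close to the 0.47 of the whole class. Within the Smoc2-led cluster alone it was 0.30 ± 0.41 for Dlx1, -0.0045 ± 0.27 for Pax9 and 0.94 ± 0.27 for Dlx2 (unadjusted p = 0.00861 for Dlx2, edgeR). Dlx2 in that cluster stood at 87.7 and 77.4 CPM in WT and 158 and 156 CPM in Din-KO. Dlx3 in that cluster stood at 164 and 115 CPM in WT and 223 and 222 CPM in Din-KO, with 0.67 ± 0.29 on the log2 scale (unadjusted p = 0.0497, adjusted p = 0.9999, edgeR), and Dlx5 gave 0.085 ± 0.25. With only pulp-like cells that had Xist and no Y-linked UMIs, Dlx1 gave 0.62 ± 0.26, Dlx2 0.41 ± 0.29 and Pax9 0.19 ± 0.34.

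In all mesenchyme-like cells 0 of 15278 genes were called by edgeR (0%), 147 had an unadjusted p under 0.05 (0.962%), and DESeq2 called 16. In simulated mesenchyme-like counts DESeq2 recovered 6.5% of 2-fold changes and called 70 unchanged genes. None of the 9 was at an unadjusted p under 0.05. Dlx1 gave 0.47 ± 0.25 and Dlx2 0.39 ± 0.25 on the log2 scale. Din-KO values exceeded WT values in every pairing of libraries for 3 of the 9, against 11.3% of all genes, and below for 0, against 6.37%.

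In follicle-like cells 0 of 12706 genes were called (0%), 291 had an unadjusted p under 0.05 (2.29%) and DESeq2 called 35. Dlx3 stood at 28.0 and 22.8 CPM in WT and 45.3 and 31.6 CPM in Din-KO, with a log2 fold change of 0.55 ± 0.28 (unadjusted p = 0.0948, edgeR). Dlx5 stood at 95.7 and 84.0 CPM in WT and 141 and 117 CPM in Din-KO, at 0.47 ± 0.23 (unadjusted p = 0.0864, edgeR). Din-KO values exceeded WT values in every pairing of libraries for 6 of the 9, against 15.7% of all genes, and below for 0, against 7.68%. None of the 6 passed an unadjusted p of 0.05. Msx2, among the 6, stood at 15.6 ± 5.8 CPM in this class, below its 33.5 ± 4.2 CPM in macrophage-like cells. For Msx1 the 4 values overlapped, and the interval of its difference was -0.54 to 0.53. In the Sfrp2-led cluster, whose follicle-like name is uncertain, Dlx3 stood at 28.4 and 31.2 CPM in WT and 59.0 and 46.0 CPM in Din-KO. In the Bmp3-led cluster the genotypes overlapped, with Dlx3 at 23.1 and 16.8 CPM in WT and 20.7 and 17.4 CPM in Din-KO. Dlx5 overlapped there too, at 55.3 and 34.9 CPM in WT and 49.5 and 57.3 CPM in Din-KO.

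In odontoblast-like cells 0 of 10423 genes were called (0%), 53 had an unadjusted p under 0.05 (0.508%) and DESeq2 called 2. The groups overlapped for all 8 members tested, where 15.2% of all genes had higher and 4.87% lower values in every pairing. In epithelium-like cells 0 of 11493 genes were called (0%), 144 had an unadjusted p under 0.05 (1.25%) and DESeq2 called 6. Din-KO values exceeded WT values in every pairing of libraries for 5 of the 8 members tested, against 17.8% of all genes, and below for 0, against 3.32%. The largest of these was Dlx6, at 12.5 and 9.41 CPM in WT and 14.5 and 28.4 CPM in Din-KO, with 0.86 ± 0.47 on the log2 scale (unadjusted p = 0.124, edgeR). Msx1, also among the 5, stood at 9.4 ± 4.3 CPM in this class, below its 46.2 ± 5.8 CPM in macrophage-like cells. For Dlx2, another of the 5, the 2 replicate 1 libraries were nearly equal. Barx1 had too few UMIs to be tested in either class. In simulated counts of these 2 classes edgeR recovered 0% of 4-fold changes. DESeq2 recovered 36.5% in the odontoblast-like class, where it also called 25 unchanged genes. In the epithelium-like class it recovered 35% and called 43 unchanged genes.

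**Figure D5:**
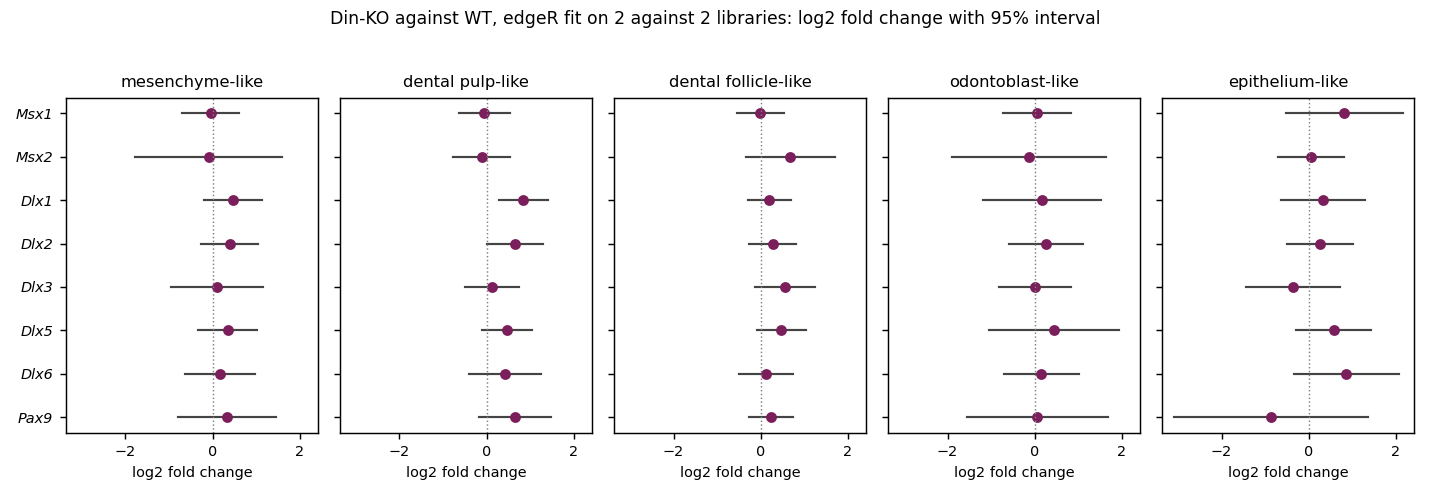
Log2 fold change of 8 factors (Barx1 left out) in Din-KO against WT libraries in the 5 tested classes, as edgeR estimates with 95% intervals. The interval of Dlx1 in pulp-like cells (0.28 to 1.40) lies above 0, and all others cross 0.

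Whether the Din-KO effect differed between classes was tested with interaction terms over 13705 genes, each class against pulp-like cells. No gene was called in any of the 3 contrasts, and 152, 212 and 381 genes had an unadjusted p under 0.05 for the follicle-like, odontoblast-like and epithelium-like class. Among the 9, Msx1 (0.93 ± 0.37, unadjusted p = 0.0290, edgeR) and Pax9 (-1.5 ± 0.61, unadjusted p = 0.0328, edgeR) in epithelium-like cells had the lowest p, both with an adjusted p of 1 and both for genes at or below the free-RNA level there.

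The neighbours and partners of the 9 were followed through 4 lists, and 0 of their genes were called by edgeR in any class. Among paralogs and antisense neighbours, Dlx6os1, the antisense RNA over Dlx6, stood at 123 and 89.4 CPM in WT and 227 and 147 CPM in Din-KO pulp-like cells (unadjusted p = 0.0444, edgeR). In epithelium-like cells it stood at 18.9 and 9.7 CPM in WT and 38.8 and 41.2 CPM in Din-KO, or 1.40 on the log2 scale. Barx2 was the only paralog of Barx1 in the files, and stood at 40.3 and 17.4 CPM in WT and 57.9 and 62.7 CPM in Din-KO epithelium-like cells, with a log2 fold change of 1.01 (unadjusted p = 0.0396, edgeR). Msx3 was at 0 to 2 UMIs per library in mesenchyme-like cells.

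Of 41 other transcription factors of tooth mesenchyme, 32 were tested in pulp-like cells, with a median log2 fold change of 0.20 and 23 above 0. Foxd1, a forkhead factor, stood at 18.8 and 37.5 CPM in WT and 49.5 and 77.1 CPM in Din-KO, or 1.21 on the log2 scale, and was among the leading genes of the Smoc2-led cluster. Osr2 gave 0.68 in pulp-like cells, and Foxd1 gave 1.15 over all mesenchyme-like cells. Of 29 signals and targets, 25 were tested there, with a median of 0.10 and 16 above 0. Of these 25, 5 had an unadjusted p under 0.05 by edgeR, against 1.81% of all genes. The list was chosen with earlier results of these data known, so this difference in shares is not a test of the list. Bmp4, the ligand that acts with Msx1 in the tooth bud, stood at 89.3 and 95.5 CPM in WT and 168 and 142 CPM in Din-KO. Fgf10, a mesenchymal ligand for epithelial stem cells, stood at 11.8 and 13.9 CPM in WT and 28.1 and 39.4 CPM in Din-KO. Gli1 and Axin2, targets of Hedgehog and Wnt signalling, gave 0.90 and 0.73 on the log2 scale. The part of the Smoc2-led cluster's share in these pulp-like values was not tested. Fgf10 gave 0.99 over all mesenchyme-like cells. In follicle-like cells the list genes with an unadjusted p under 0.05 were the forkhead factor Foxc2 (1.13), the BMP antagonist Grem1 (1.45) and the BMP target Id1 (0.90). These were 1 of 34 tested mesenchymal factors and 2 of 25 signals and targets, against 2.29% of all genes. The Sfrp2-led cluster held 52.8% and 39.9% of follicle-like cells in WT and 58.3% and 49.1% in Din-KO. The part of that share in these follicle-like values was not tested. In pulp-like cells Id4, an inhibitor of helix-loop-helix factors, gave -0.61. Of 12 factors of dental epithelium, 10 were tested in epithelium-like cells, with a median of 0.27 and none at an unadjusted p under 0.05.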

How the data were processed

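Proximal lower-incisor tissue of 15-day-old mice was measured by droplet single-cell RNA sequencing (10x 3′ v3.1 chemistry, which keeps strand) in 2 WT and 2 Din-KO libraries. The authors aligned reads to mm10/GRCm38 and counted UMIs per gene and barcode with Cell Ranger, and the deposited values are these raw counts. Groups came from the genotype in the labels. Cells with under 1000 genes, over 10% mitochondrial or over 3% haemoglobin UMIs were removed, as in the study. Cells were integrated and clustered again with Seurat 5.3.0 (2000 variable genes without the members, of which 2 were left out, 30 components, cell cycle regressed, resolution 1). Clusters were named from marker lists by a scoring rule set with the data in hand (at least 3 markers raised by 0.58 on the log2 scale). Clusters rebuilt in this way may differ from the study's. Scanpy 1.11.5's Scrublet called 107 cells (0.946%) as doublets, which were kept, and an alternative removed the highest 5% of scores. Libraries shared 4 to 12 barcodes by pair before filtering.

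UMI counts were summed per library and class and fitted over all genes with edgeR 4.0.16 (filterByExpr, TMM, quasi-likelihood, Benjamini-Hochberg at 0.05), with no covariate, in R 4.3.3. The count model was tested on simulated data with 200 changed genes. DESeq2 1.42.0, other filters, thinning to 2000 UMIs, left-out libraries, Xist-positive cells and a replicate block were alternatives. An exact permutation test of 2 against 2 libraries could not reach 0.05. Homeobox sequences were read from GENCODE vM21 transcripts, and no protein sequences were used here. Some sequences and genes are not reported here. Named were all 9 members, the 3 genes most like each, genes of the fixed lists past the threshold, and, after their values were seen, list genes under an unadjusted p of 0.05. The members and lists were chosen with earlier results of these data known.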

Additional observations from a re-analysis of the deposited data

How the results depend on the processing

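Of 179 member fold changes between genotypes under other settings, 164 kept their direction and side of the threshold, 3 passed it and 12 changed sign. Of 585 class ratios, 526 moved by less than 1 SD between libraries. The 3 that passed came from the replicate block. Same-numbered libraries deviated together (r = 0.510 in pulp-like and 0.790 in mesenchyme-like cells), but the labels do not say what the numbers mark, and 2 pairs are few. With the replicate block, edgeR called 3 members in pulp-like cells, Dlx1 (0.87), Dlx2 (0.68) and Pax9 (0.71 on the log2 scale), and 0 in the other classes. The block called 158 of 15278 genes in mesenchyme-like and 366 of 13021 in pulp-like cells. It called 84 of 12706 in follicle-like and 5 of 10423 in odontoblast-like cells. The interaction fits hold a library term already.

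Under the settings other than the replicate block, genes called moved while members called stayed at 0. With no filter on low counts 7, 59, 141 and 1 genes were called in mesenchyme-like, pulp-like, follicle-like and odontoblast-like cells, and DESeq2 called 16, 15, 35 and 2, with 6 in epithelium-like cells. Leaving out 1 library gave 0 to 5, 9 to 140, 14 to 51 and 0 to 1, where the lone library was assumed to vary like the others (140 without WT replicate 2). Pulp-like cells gave 0 genes without cell cycle regression, 5 when thinned, 0 with Xist-positive cells only, 4 without the Smoc2-led cluster and 0 in it alone. Follicle-like cells gave 2 with Xist-positive cells and 1 with high doublet scores removed. Interactions gave 1 gene with no filter for follicle-like and for odontoblast-like cells, and 0 to 1 for the latter with 1 library left out. The cause was not tested.

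Msx1 in pulp-like cells ran from -0.10 to 0.013 with 1 library left out (0.013 without WT replicate 2) and turned to 0.11 with classes set cell by cell, 0.11 with Xist-positive cells and 0.13 without the Smoc2-led cluster. Msx2 ran from -0.36 to 0.10 with 1 library left out (0.07 and 0.10 with WT replicate 1 or Din-KO replicate 2 removed) and turned to 0.13 with classes set cell by cell, 0.049 with Xist-positive cells, 0.10 without the Smoc2-led cluster and 0.38 in it alone. Pax9 turned to -0.0086 without that cluster and -0.0045 in it. Pax9 in pulp-like cells ran from 0.24 without WT replicate 1 to 1.13 without WT replicate 2.

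Of the members, 5 were higher and 1 (Pax9) lower in pulp-like than in follicle-like cells in every library. The lower count was 0 without cell cycle regression, 2 with Xist-positive cells, 2 without and 0 with only the Smoc2-led cluster, and 1 to 2 with 1 library left out. The higher count was 8 without the Sfrp2-led cluster and 8 with only the Smoc2-led cluster. Barx1 is among the 8 in both settings. In WT replicate 2 it had no UMI in either class, and counts under 3 UMIs were set to 3. Its direction there followed the class totals only. For odontoblast-like against pulp-like cells (0 higher, 3 lower) the lower count was 6 without cell cycle regression, 5 against the Smoc2-led cluster and 3 to 5 with 1 library left out, and the higher count was 1 when thinned or against that cluster. Against follicle-like cells (1 lower) it was 2 at resolution 0.5, without cell cycle regression, when thinned and with Xist-positive cells, and 1 to 2 with 1 library left out. The count lower in mesenchyme-like than in epithelium-like cells (1) was 2 when thinned and 2 without the Smoc2-led cluster. Ameloblast-like cells were higher for 0 to 2 members with 1 library left out and for 1 with matrix genes left out. The settings on the Smoc2-led, Sfrp2-led, ameloblast-like and matrix genes were chosen after seeing the data.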

Other observations

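Cells outside the 4 classes also held some of the factors. In 78 perivascular-like cells Msx1 stood at 274 ± 55 CPM and Dlx5 at 107 ± 27 CPM, against 46.2 and 8.7 CPM in macrophage-like cells. Dlx6 stood at 48.3 ± 23.1 CPM there, and Pax9 at 46.1 ± 14.9 CPM. With 10 to 26 such cells per library, whether these values come from pericytes or from mesenchymal RNA carried with them was not tested. In 94 glia-like cells Dlx2 stood at 58.8 and 26.9 CPM in WT and 22.2 and 40.9 CPM in Din-KO, and Dlx1 at 29.4, 11.5, 11.1 and 21.2 CPM. These values rest on only 44 Dlx2 and 22 Dlx1 UMIs in all, from 14 to 45 cells per library. Msx2, Dlx3 and Dlx5 in the same cells stood at 8.2 ± 10.2, 8.6 ± 9.0 and 4.2 ± 4.9 CPM. Msx2 lay below its macrophage-like values of 33.5 ± 4.2 CPM, and Dlx3 and Dlx5 overlapped theirs. The 2007 mesenchyme-like cells without a narrower name were close to pulp-like cells for Msx2 (298 ± 22 CPM) and Dlx3 (219.9 ± 45.2 CPM). They held 19.7 ± 5.1 CPM of Pax9 against 64.7 ± 25.6 CPM in pulp-like cells.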
